A study of Homo sapiens with 14 samples.

Results

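A group of 10 T cell surface genes was followed across 14 CUT&Tag peak lists from Jurkat, an established human T cell acute lymphoblastic leukaemia line. They are CD2, CD5, CD6, CD7, CD27, CD28, CTLA4, ICOS, CD69 and PTPRC, named as a set for their products on the T cell membrane, and make up 10 of 19974 protein-coding genes (RefSeq, GRCh38.p14, chromosomes 1 to 22 and X). Each gene was given a window of its annotated body extended by 20 kb on both sides, and every peak that overlapped a window by at least 1 bp was taken. These windows held 347 of the 273342 peaks used, counted over all lists. CD6 and CD5 are neighbours on chromosome 11, and CD28, CTLA4 and ICOS on chromosome 2, so each of these clusters was also followed as 1 locus, the intervals between its genes included, which gives 7 loci in all.

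CUT&Tag cuts and tags DNA next to an antibody-bound protein with the transposase Tn5, and a peak is a stretch where such fragments pile up. All cells with an shRNA label had been infected with lentivirus, which carried a control hairpin (shCtrl) or one that targets SATB1 (shSATB1). SATB1, a chromatin organiser of thymocytes and T cells, was mapped in shCtrl cells only (2 libraries). H3K27ac, a histone mark of active promoters and enhancers, was mapped in shCtrl (2) and shSATB1 (2), and CTCF, the insulator and loop-anchor protein, in shCtrl (3) and shSATB1 (3). Matrin 3, a nuclear matrix protein, was mapped in 2 libraries whose labels name no shRNA. Whether replicates are separate cultures is not stated in the labels, so p-values reflect only how these libraries scatter, and that scatter may be technical. A SATB1 library after knockdown was not analysed here, and peak lists measure neither SATB1 transcript nor protein, so the knockdown itself was not checked.

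The products of these genes sit on the T cell membrane and tune the response to the antigen receptor. CD2 is an adhesion receptor, and CD5 and CD6 are scavenger-receptor-type glycoproteins that dampen receptor signalling. CD28 and ICOS are costimulatory receptors, CTLA4 is their inhibitory relative and competes with CD28 for the same ligands, and CD27 is a costimulatory receptor of the TNF receptor family. CD7 is an early T lineage glycoprotein, CD69 an early activation antigen that holds cells in tissue, and PTPRC encodes CD45, the phosphatase that keeps Src family kinases ready to signal. The lineage of the line was checked on H3K27ac within 2 kb of an annotated gene end in both shCtrl lists. All 10 T lineage markers carried it (among them CD3D, CD3E, LCK, ZAP70 and BCL11B), against 1 of 6 B lineage markers (CD79A) and none of 6 myeloid, 4 erythroid and 4 epithelial and stromal markers.

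Library depth was not known from the files, and list length differed by target and arm. The 3 CTCF lists of shCtrl held 31141 to 32540 peaks of 2371 to 2559 bp (medians), and the 3 of shSATB1 held 14695 to 20284 peaks of 1469 to 1746 bp. For H3K27ac the length was 17141 and 17863 peaks with shCtrl, and 15972 and 17925 with shSATB1. Matrin 3 replicate 1 listed 24566 peaks and replicate 2 listed 2105, so replicate 2 could show little at any gene. Identical starts joined 6001 peaks of the SATB1 lists (40.8% of the smaller one), against at most 1.03% in the other 90 pairs of lists, and 10 peaks (38.5%) in the windows of these genes. They were counted as 1 sample, and their values are given for each list with no spread. Peak height is the authors' maximum signal, unscaled, and is given as a percentile within its own list. Percentiles from lists of different length show no change between arms.

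The sequences upstream of the start sites are shown for 4 members whose promoters carried different sets of targets. CD2 and CD28 carried SATB1, H3K27ac, CTCF and Matrin 3, CD27 carried H3K27ac and CTCF without SATB1, and ICOS carried 1 weak SATB1 peak and 1 Matrin 3 peak. They come from RefSeq (GRCh38.p14), whose promoter table matched 6 of the 10 genes (CD2, CD27, CD28, CTLA4, ICOS and PTPRC, all on the plus strand). Each run reads 5′ to 3′ over up to 250 bases upstream of the start site and leaves out bases inside the annotated gene body. CD2 is shown at chr1:116754180-116754429, CD27 at chr12:6443642-6443891, CD28 at chr2:203706389-203706481 (93 bases) and ICOS at chr2:203936513-203936762. Capitals mark matches to the 7 motifs searched.
CD2: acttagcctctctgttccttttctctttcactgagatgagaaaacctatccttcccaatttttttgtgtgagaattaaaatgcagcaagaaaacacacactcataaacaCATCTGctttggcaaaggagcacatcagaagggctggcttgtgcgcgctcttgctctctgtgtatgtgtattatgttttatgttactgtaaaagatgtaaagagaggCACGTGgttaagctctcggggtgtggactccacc
CD27: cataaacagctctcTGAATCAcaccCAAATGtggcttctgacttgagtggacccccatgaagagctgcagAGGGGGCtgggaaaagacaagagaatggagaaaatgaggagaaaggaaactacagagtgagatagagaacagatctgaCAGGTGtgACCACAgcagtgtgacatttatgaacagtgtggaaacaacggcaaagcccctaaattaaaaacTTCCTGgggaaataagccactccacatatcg
CD28: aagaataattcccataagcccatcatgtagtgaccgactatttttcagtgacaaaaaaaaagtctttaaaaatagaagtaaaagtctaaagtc
ICOS: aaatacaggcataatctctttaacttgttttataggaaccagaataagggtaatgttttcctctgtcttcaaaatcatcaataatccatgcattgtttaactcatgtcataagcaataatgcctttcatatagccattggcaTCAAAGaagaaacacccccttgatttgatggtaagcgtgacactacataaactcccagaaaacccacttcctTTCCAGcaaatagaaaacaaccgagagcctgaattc

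The motifs, searched on both strands in the 250 bases before the start site, were AGGNGGC as a short CTCF core, TGTGGT for RUNX factors, AGATAA for GATA factors, CNGGAA for ETS factors, CANNTG as the E-box, CTTTGA for TCF and LEF factors, and TGANTCA for AP-1. CD27 was the only one of the 6 promoters with a match to the CTCF core, found in 37.2% of 15813 promoters, and to AP-1, found in 5.05%. The short CTCF core was taken up after a longer form of it had been searched and matched none of the 6 promoters, so the match at CD27 rests on that choice. CD27 also held RUNX (8.90% of promoters), ETS (57.4%) and E-box (57.8%) matches. CD2 held 2 E-box matches, at 141 and 34 bases before the start. CD28 held RUNX and E-box matches, which lie nearer to its start than the bases shown. TCF/LEF (9.60% of promoters) was matched at ICOS and CTLA4. GATA (6.84%) matched none of the 6, and no matches overlapped one another. Their GC content was 31.2% at PTPRC, 36.8% at ICOS, 40.4% at CTLA4, 42.8% at CD2, 45.2% at CD28 and 46% at CD27, against a median of 62.4% over all promoters. A match is a description of letters and not of bound protein.

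Across the 10 genes SATB1 covered the greatest length at CD28, CD69 and CD2. Lengths and their percentiles are not scaled to window length, which was 42.7 kb at CD7 and 159 kb at PTPRC. Peaks of the 2 SATB1 lists covered 19.1 and 18.0 kb of the CD28 window, 11.0 and 11.1 kb at CD69 and 8.19 and 8.31 kb at CD2. The mean of CD28 lay at the 99.7th percentile of all 19974 genes, that of CD69 at the 98.9th and that of CD2 at the 98.1st. CD6 followed with 3.26 and 4.88 kb (92.6th percentile), then CD7 (2.90 and 2.33 kb), CD27 (2.49 and 2.42 kb), ICOS (2.92 and 1.38 kb) and PTPRC (2.17 and 1.09 kb). CD5 had 1.05 kb in 1 list and none in the other, and CTLA4 none in either. The lists put CD7, CD27 and ICOS in different orders, so no order is read between them. The median over the 10 genes was 2.54 kb, against 0.326 kb over all genes, and 8 of the 10 (80.0%) had a SATB1 peak in both lists, against 45% of all genes.

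The windows held 23 regions called in both SATB1 lists, of 13072 in the genome. Of these 23 regions, 19 (82.6%) overlapped H3K27ac, 17 (73.9%) CTCF and 19 (82.6%) the replicate 1 list of Matrin 3, and the shares over all SATB1 regions were 75.3%, 71.0% and 82.9%. All 3 met on 16 regions (69.6%, against 59.6% overall), and 2 regions overlapped none of them. Gene ends lay within 2 kb of 9 regions (39.1%, against 32.5%), and 12 (52.2%, against 69.0%) overlapped a protein-coding gene body. The regions had a median width of 1864 bp, against 1364 bp for all SATB1 regions. The shares of H3K27ac, CTCF and Matrin 3 at SATB1 regions of these genes were therefore near those of SATB1 regions at large.

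At the CD28, CTLA4 and ICOS locus (chr2:203706482-203961577 from the lower end of CD28 to the higher end of ICOS), marks were concentrated on CD28. Both SATB1 lists called 7 regions in the CD28 window, 4 of them over the gene body. The highest, inside the gene from 203717648 to 203721758, 11.2 kb from its start, stood at percentiles 97.3 and 97.8. The region over the start itself, from 203706038 to 203707290, stood at 71.6 and 65.2. Both lie inside 1 H3K27ac domain of 203702206 to 203722974, whose peak was 19.9 and 20.7 kb wide in the shCtrl lists and 19.1 and 19.3 kb wide in the shSATB1 lists. Its height stood at percentiles 98.4 and 97.8 in shCtrl and 96.9 and 97.4 in shSATB1. A further H3K27ac domain, 203736156 to 203745139, covered the higher-coordinate end of CD28 at percentiles 95.3 to 96.0 in all 4 lists, and it held a SATB1 region at 58.6 and 53.6.

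CTCF at CD28 was called over the same stretches in shCtrl cells and hardly at all in shSATB1 cells. The CD28 window held 3, 3 and 4 CTCF peaks with shCtrl and 0, 0 and 2 with shSATB1, covering 16.6, 18.3 and 16.8 kb against 0, 0 and 3.69 kb. Every shSATB1 library lay below every shCtrl library by both measures. Over the gene body and start (203705974 to 203723167) the CTCF peaks stood at percentiles 57.9, 64.4 and 65.8 in shCtrl, and the only shSATB1 list with a peak there was replicate 3, at 18.0. The promoter bases of CD28 lay under a CTCF peak in all 3 shCtrl lists (38.8, 46.3 and 37.1) and in no shSATB1 list. Covered length was 17.2 ± 0.924 kb in shCtrl and 1.23 ± 2.13 kb in shSATB1 (SD, n = 3 each; p = 0.1 by a two-sided exact permutation test, the smallest that 3 against 3 libraries can give, adjusted p = 0.138 by Benjamini-Hochberg over all genes). The shSATB1 length was 7.14% of the shCtrl length, at the 14.6th percentile of the 16033 genes with CTCF in shCtrl, whose median was 37.5%.

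Between CD28 and CTLA4 the lists differed in which CTCF peaks they kept. A region 51.1 kb before the lower end of CTLA4 (203812563 to 203816709) was called in all 6 CTCF lists, at percentiles 74.1, 71.0 and 73.1 in shCtrl and 43.8, 22.2 and 46.2 in shSATB1. It was the only CTCF region of the locus called in every library. Another, 41.3 kb past CD28, was called in the 3 shCtrl lists (48.2 to 50.6) and only in replicate 3 of shSATB1 (10.0). Over the whole locus CTCF peaks numbered 5, 5 and 6 in shCtrl and 1, 1 and 4 in shSATB1, and replicate 3 of shSATB1 was the highest of its arm here as at CD28.

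CTLA4 and ICOS carried neither H3K27ac nor CTCF in any list. In the CTLA4 window the single peak in 14 lists was Matrin 3, replicate 1, inside the gene from 203869412 to 203870168 at percentile 15.6. ICOS carried a strong SATB1 region inside the gene, 203951408 to 203952785, 8.79 kb before its higher-coordinate end, at percentiles 90.1 and 90.6. It is 1 of 4 SATB1 regions among these genes with no H3K27ac in the shCtrl lists, and a Matrin 3 peak (replicate 1, 59.0) lay on it. The ICOS start carried a weak SATB1 peak in 1 list (1.58) and a Matrin 3 peak (41.2). Low SATB1 peaks also lay 62.6 and 57.8 kb before CTLA4, at percentiles between 32.1 and 43.1, the nearer of them on an H3K27ac region.

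**Figure D1:**
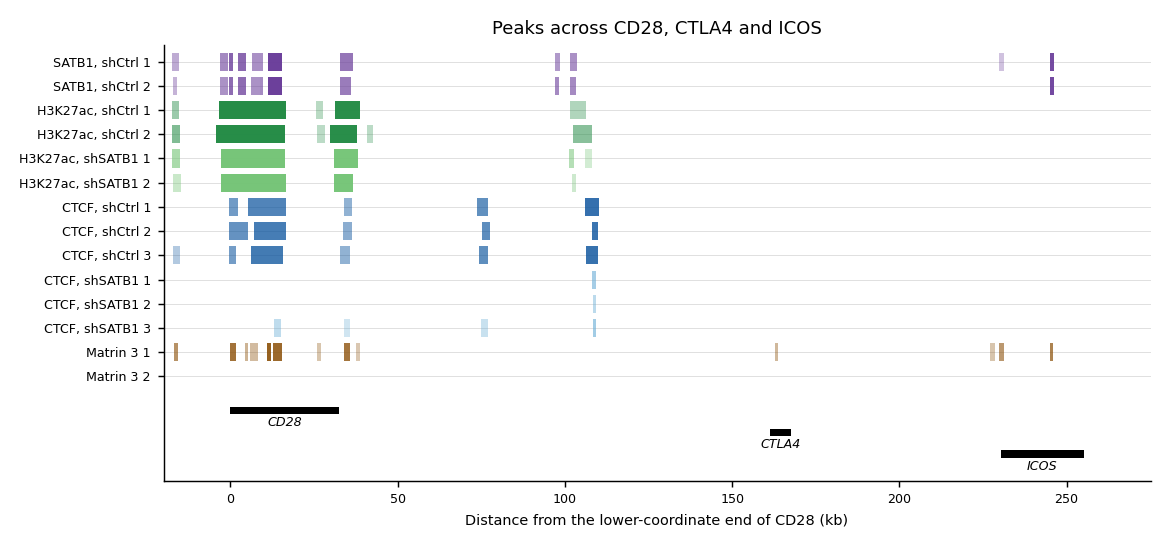
Peaks of the 14 lists across CD28, CTLA4 and ICOS, 1 row per library, against distance from the lower-coordinate end of CD28 (kb). Boxes are peaks, darker within a row for a higher within-list percentile of maximum signal and drawn lighter overall for shSATB1, black bars are genes. The CTCF rows of shSATB1 replicates 1 and 2 are empty over CD28 while the H3K27ac rows of both arms keep the same 2 domains.

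At CD6 and CD5 (chr11:60971680-61127852), 8 H3K27ac regions were called in all 4 lists, CTCF overlapped each of them in at least 2 shCtrl lists, and SATB1 lay mostly on the CD6 side. SATB1 regions called in both lists lay inside CD6 6.79 kb from its lower end (percentiles 38.4 and 31.0), 0.833 kb past its higher end (38.4 and 31.0) and 5.18 kb past it (38.4 and 12.6). The highest of the locus lay between the genes, 21.6 kb past CD6 (61041957 to 61043003), at 84.4 and 82.8. It is outside both windows by a small margin, but the H3K27ac region over it, 61040128 to 61043511, reached into the CD6 window and stood at percentiles 97.3 and 97.0 in shCtrl and 95.4 and 95.7 in shSATB1. Matrin 3 was high there too (replicate 1, 95.8). Inside CD5, SATB1 was called in 1 list only (13.0), on the strongest H3K27ac region of that gene (61101420 to 61103831, at 92.4, 95.4, 83.6 and 83.8).

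CTCF peaks in the CD6 window numbered 6, 6 and 7 in shCtrl and 2 in each shSATB1 library. They covered 16.4, 15.9 and 19.3 kb in shCtrl and 3.58, 3.27 and 3.53 kb in shSATB1, so the arms were far apart and the shSATB1 libraries close together. The difference in number was -4.33 peaks (6.33 ± 0.577 against 2 ± 0, SD, n = 3 each; exact permutation p = 0.1, adjusted p = 0.307), the largest among the 10 genes. It was -3.67 when only peaks with their midpoint in the window were counted. Peaks of shCtrl replicates 2 and 3, from 61039677 and 61039791, only crossed the higher window edge. The region they belong to was called by shSATB1 replicates 1 and 3 outside the window, from 61041721 and 61042045. Of the CTCF regions at CD6, 3 were called in every shCtrl list and in no shSATB1 list. They lie in the gene at 60977978 to 60980656 (21.9, 10.1 and 30.3) and at 61003704 to 61006428 (38.8, 26.4 and 20.7), and beyond it at 61024895 to 61028929 (10.3, 30.3 and 24.3). SATB1 regions overlap the one nearest the lower end and the one beyond the gene. The region over the lower end, 60968897 to 60974566, was called in all 6 lists, at 73.5 to 78.7 in shCtrl and 49.4 to 78.0 in shSATB1.

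CD5 was less uniform. Its window held 4, 3 and 3 CTCF peaks in shCtrl and 1, 3 and 2 in shSATB1, which overlap, while covered length was 10.2, 10.5 and 10.1 kb against 2.75, 5.88 and 4.21 kb, which do not. The CTCF region at 61126834 to 61133754 covers the higher end of CD5 and the lower end of VPS37C, which encodes a subunit of the ESCRT sorting machinery. It was the highest of the locus, was called in every CTCF list and stood at percentiles 95.5, 95.5 and 96.4 in shCtrl and 92.0, 93.1 and 91.3 in shSATB1. An H3K27ac region inside CD5 (61110970 to 61112554) was called in both shCtrl lists (61.3 and 33.7) and in neither shSATB1 list.

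**Figure D2:**
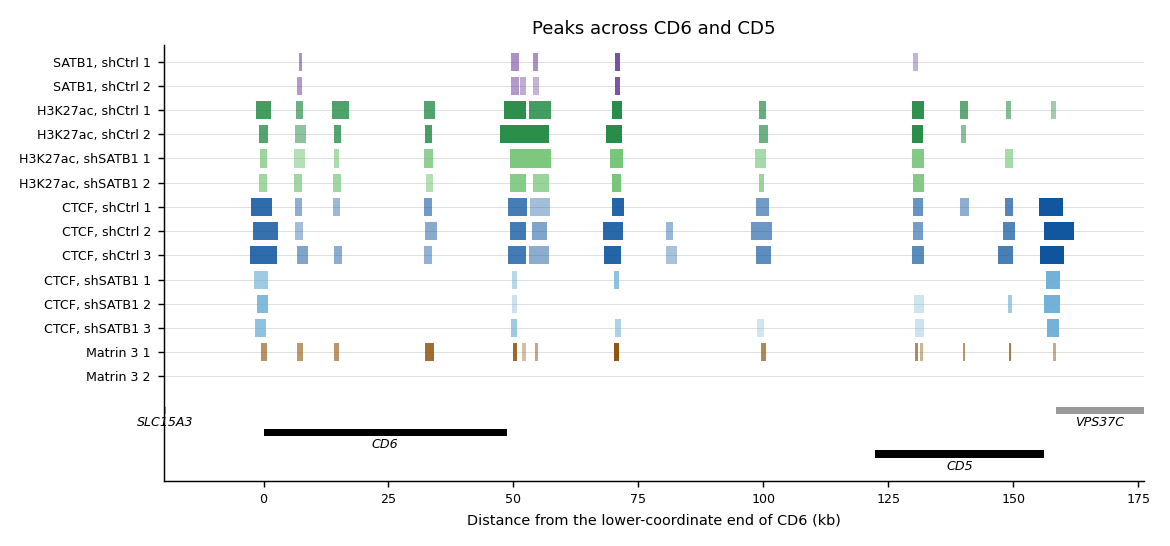
Peaks of the 14 lists across CD6 and CD5, 1 row per library, against distance from the lower-coordinate end of CD6 (kb). Boxes are peaks, darker within a row for a higher within-list percentile of maximum signal and drawn lighter overall for shSATB1, black bars are the 2 genes and grey bars neighbours. CTCF peaks number 11 to 12 in the shCtrl rows and 4 to 6 in the shSATB1 rows, and the peak at the CD5 and VPS37C boundary is in every CTCF row.

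CD2 (chr1:116754430-116769229) carried the tallest H3K27ac domain of the 10 genes, from just before the start to beyond the other end. Its peak was 20.1 and 20.7 kb wide in the shCtrl lists and 20.3 kb in shSATB1 replicate 2, and replicate 1 of shSATB1 called it as 2 peaks of 7.57 and 12.2 kb. The height stood at percentiles 99.4 and 99.2 in shCtrl and 99.7 and 99.6 in shSATB1. SATB1 was called in both lists over the start (65.7 and 71.2), inside the gene (44.2 and 48.5), over the higher end (93.4 and 93.7) and 7.90 kb past it (4.02 and 43.1). The start of CD2 was 1 of only 2 places in these windows where both Matrin 3 lists had a peak (80.6 and 40.5).

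At CD2 the arms overlapped in the number of CTCF peaks and were apart in their length. Peaks numbered 2, 3 and 3 in shCtrl and 4, 3 and 4 in shSATB1, while they covered 23.5, 21.5 and 25.05 kb in shCtrl and 7.38, 7.97 and 12.1 kb in shSATB1. The numbers of the arms meet at 3, and the lengths do not overlap. In shCtrl replicates 1 and 3 a single CTCF peak of 19.0 and 19.2 kb ran over the promoter and the whole gene. In shSATB1 the promoter was under a separate peak of 0.767 kb in replicate 1 and 1.90 kb in replicate 3, and under none in replicate 2. The mean length was 39.1% of shCtrl, near the median of all genes (37.5%).

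CD7 (chr17:82314873-82317608) had the highest shSATB1 length of CTCF relative to shCtrl among the 10 genes. Its window held 5 CTCF peaks in every shCtrl library and 3 in every shSATB1 library, which covered 17.5, 18.9 and 19.0 kb and 10.9, 10.8 and 12.3 kb. No library of an arm reached the other arm by either measure (5 ± 0 against 3 ± 0 peaks, SD, n = 3 each, exact permutation p = 0.1, adjusted p = 0.307). The difference in number was 0 with windows of 0 or 5 kb, and the arms overlapped without the lowest 25% of each list by height (-1.67 peaks). It was -1 when only peaks with their midpoint in the window were counted. The shCtrl peaks of replicates 1 and 3 that crossed the lower window edge lie in a region from 82290874 to 82295702. That region was called in every CTCF list when the lists were cut to equal length. The shSATB1 length was 61.3% of shCtrl, at the 88.4th percentile of all genes. The region over CD7 itself (82315383 to 82318484) stood at 90.0, 91.5 and 88.5 in shCtrl and 66.0, 87.4 and 89.3 in shSATB1. The region missing from every shSATB1 list, 82331607 to 82333848, lies at the higher end of the neighbouring SECTM1, which encodes a ligand of CD7. SATB1 was called in 1 region of the window, 10.7 kb below the lower end (49.5 and 48.5), within an H3K27ac domain of 82296333 to 82306863 at percentiles 95.6 and 96.5 in shCtrl and 91.5 and 92.2 in shSATB1. CD7 itself carried an H3K27ac peak at 76.3 and 71.7 in shCtrl and 68.2 and 67.1 in shSATB1, with no SATB1.

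CD27 (chr12:6443892-6451713) had no SATB1 on the gene. Both SATB1 regions of its window lie on the neighbours TAPBPL, which encodes a peptide-loading factor of class I antigen presentation, and VAMP1, which encodes a vesicle fusion protein. They stood at percentiles 58.6 and 57.9 (6461576 to 6462614) and 93.0 and 92.9 (6470089 to 6471543), and the higher of them was the other place with both Matrin 3 lists (97.3 and 26.0). The CTCF region over the CD27 start (6442861 to 6448463), which holds the promoter bases with the CTCF core match, was called in every shCtrl list (30.0, 30.3 and 16.1) and in no shSATB1 list. H3K27ac stayed over that start in all 4 lists, at percentiles 67.8 and 68.8 in shCtrl and 52.5 and 38.8 in shSATB1. The window held 5, 6 and 4 CTCF peaks in shCtrl and 5 in each shSATB1 library, a mean of 5 in both arms, whereas covered length was 20.6, 21.6 and 25.04 kb against 7.06, 10.3 and 9.42 kb. Every shSATB1 length lay below every shCtrl length, and the numbers overlapped.

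CD69 (chr12:9752486-9760901) carried its H3K27ac domain over the higher-coordinate end, from 9756688 to 9766745, at percentiles 97.3 and 96.7 in shCtrl and 96.6 and 95.8 in shSATB1. SATB1 lay in the same stretch, over the end of the gene (9757405 to 9762523, 62.4 and 76.1) and 2.81 kb beyond it (80.0 and 76.1), with weaker regions on either side. CTCF peaks numbered 4 in every shCtrl library and 2, 3 and 4 in shSATB1. They covered 14.9, 13.3 and 14.7 kb and 3.46, 5.24 and 7.51 kb, so numbers met at 4 while lengths did not overlap. The highest CTCF region, over the lower-coordinate end (9748086 to 9753832), was called in all 6 lists (85.0 to 89.9 in shCtrl and 50.5 to 84.7 in shSATB1). The one at 9763727 to 9766170, on the SATB1 region beyond the gene, was called in the 3 shCtrl lists (33.9, 10.1 and 44.5) and in no shSATB1 list.

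CD69 was the only member with more H3K27ac length in both shSATB1 lists than in either shCtrl list. The lengths were 9.82 and 9.88 kb in shCtrl and 12.5 and 10.3 kb in shSATB1. The domain over the gene was 9.82 and 9.88 kb wide in shCtrl and 9.40 and 9.05 kb in shSATB1, and the added length came from peaks beyond the gene. One of these, 9772733 to 9774200, was called in both shSATB1 lists (25 and 16.9) and in no shCtrl list. With the gene body alone as the window, or 5 kb on either side, the difference was -0.543 kb in place of 1.58 kb, and it was -0.626 kb without the lowest 25% of each list by height. The higher length at CD69 thus holds only for low peaks in the outer part of the window.

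**Figure D3:**
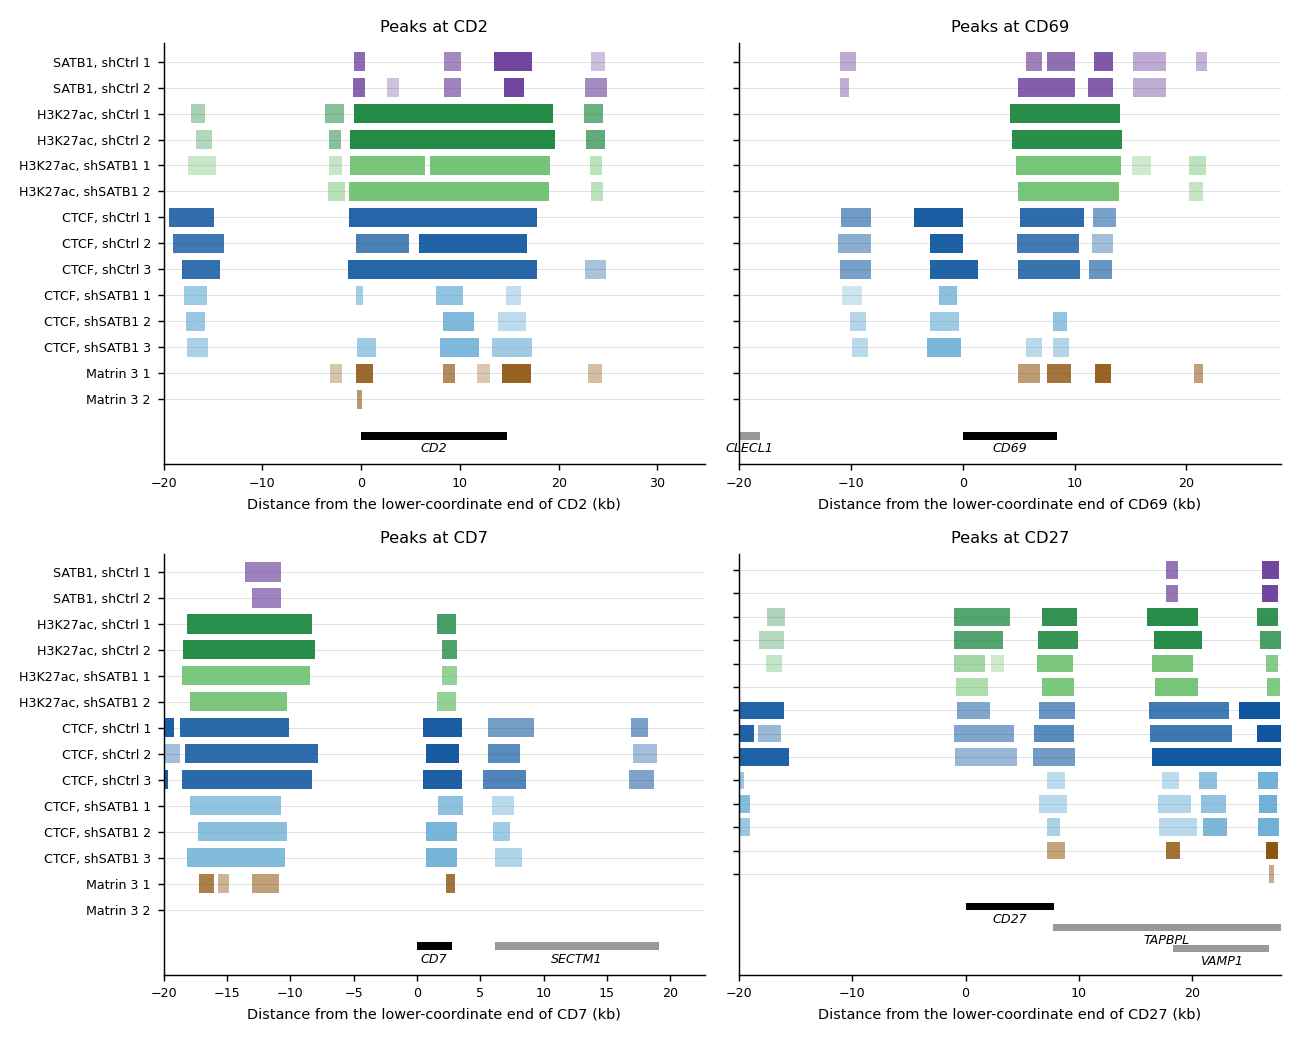
Peaks of the 14 lists at CD2, CD69, CD7 and CD27, 1 row per library in the same order in all 4 panels, against distance from the lower-coordinate end of the gene (kb). Boxes are peaks, darker within a row for a higher within-list percentile of maximum signal and drawn lighter overall for shSATB1, black bars are the named genes and grey bars neighbours. The long CTCF peaks over CD2 in shCtrl replicates 1 and 3 stand as separate short peaks in the shSATB1 rows, and the CTCF peak over the CD27 start is in the 3 shCtrl rows only.

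PTPRC (chr1:198638713-198757476) had no peak over its body in any of the 14 lists. The nearest peaks on either side end at 198317049 and start at 198761109, a stretch of 444 kb without a call in any list. This is not read as absence of the marks from the gene. Beyond its higher-coordinate end a weak H3K27ac region (198772697 to 198775369) was called in both shCtrl lists (2.28 and 24.8) and in replicate 1 of shSATB1 (20.6). SATB1 was called 18.9 kb past the end in both lists, at percentiles 4.02 and 12.6. No CTCF peak lay in the window. The ends of 2 further neighbours, SLC15A3 and CLECL1, reach into the windows of CD6 and CD69. No region of any target lay on the parts inside the windows, and the rest of these genes was not examined.

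Counted over the genes, the number of CTCF peaks was lower in every shSATB1 library than in any shCtrl library at 3 of the 10 (CD6, CD7 and CD28), and at none was it higher. The same held for 31.6% of all 19974 genes in the lower and 1.05% in the higher direction, so the count of 3 is near the background. CD6 and CD28 were among the 3 also with windows of 0 or 5 kb and without the lowest 25% of each list by height, while CD7 gave way to CD27 with the narrower windows and to CD5 without the lowest peaks. By covered length 7 of the 10 were lower, that is every member with a CTCF peak, against 72.3% of all genes, and none was higher, against 0.00501%. The median difference in length was -8.02 kb over the 10 genes and -3.01 kb over all genes, and that in number -0.500 and -0.667 peaks. These kb are not scaled to the shCtrl length of each gene. The shSATB1 length was 7.14% of shCtrl at CD28, 20.1% at CD6 and 61.3% at CD7. It was 37.8% at CD69, 39.1% at CD2, 39.9% at CD27 and 41.9% at CD5. The median over genes with CTCF in shCtrl was 37.5%, near these last values. No gene had an unadjusted or adjusted p under 0.05 in the exact permutation test, which 3 libraries against 3 cannot give, and the smallest adjusted p over all genes was 0.307 for number and 0.138 for length. Of 29 CTCF regions in the windows 6 (20.7%) were called in every shCtrl and no shSATB1 list, against 22.7% of 34146 regions. None was gained, against 0.00879%, and 13 (44.8%) were called in all 6 lists, against 35.7%. The 6 had a median within-list percentile of 25.6 in shCtrl and the 13 of 83.3. SATB1 lay on 3 of the 6 (50%) and on 5 of the 13 (38.5%), against 16.4% and 40.4% of such regions in the genome. It lay on 14 of all 29 CTCF regions in the windows (48.3%), against 25.5% of all CTCF regions. The 50% is thus near the share for the windows as a whole.

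When every CTCF list was reduced to the 14695 highest peaks of its list, the length of the shortest, CD28 was the only member lower in every shSATB1 library (1, 1 and 1 peaks against 0, 0 and 0). The share of all genes lower in that setting was 3.05%. The region then missing from the shSATB1 lists was 203711702 to 203723167, inside CD28. CD27 was higher, with 3, 3 and 2 peaks against 5, 5 and 4, beside 3.53% of all genes. CD6 then held 2, 3 and 3 peaks against 2, 1 and 2, and CD7 3, 2 and 4 against 3 in each library, which overlap.

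**Figure D4:**
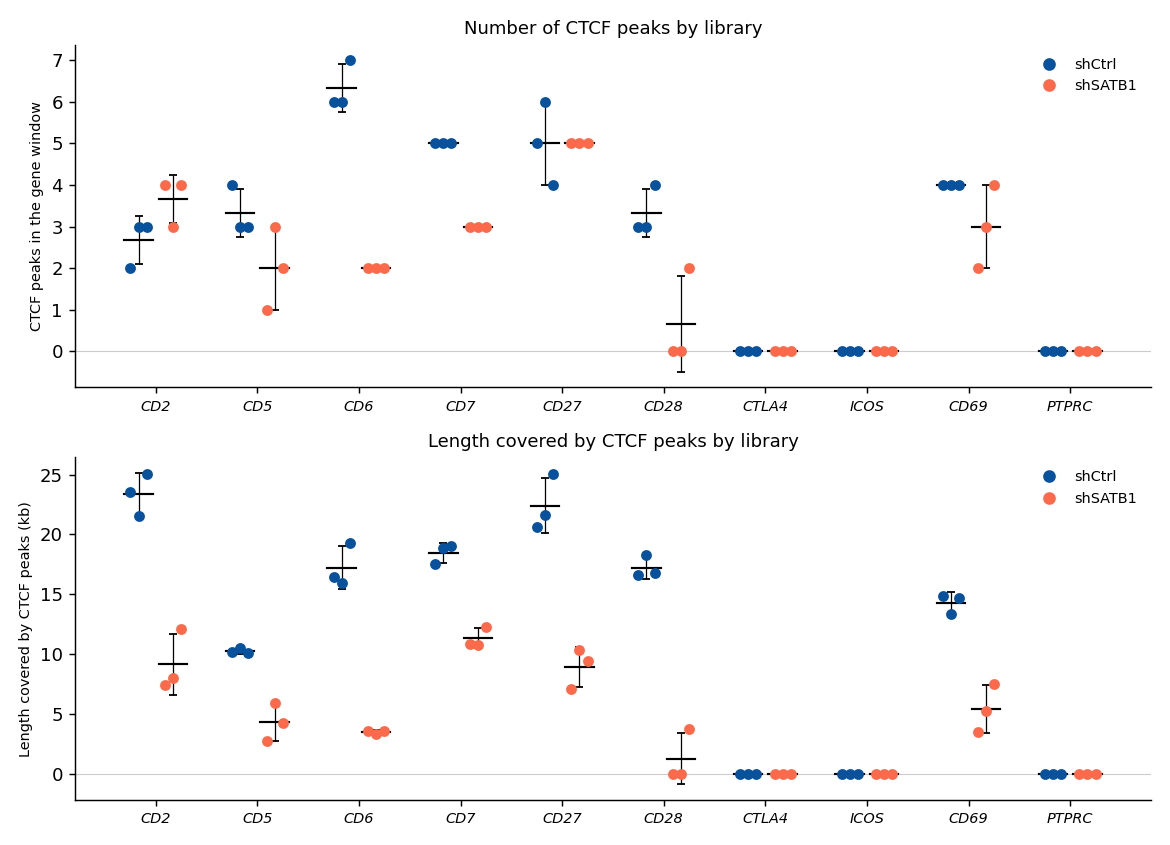
Number of CTCF peaks (upper panel) and length covered by them in kb (lower panel) in the window of each gene. Points are libraries, 3 shCtrl and 3 shSATB1, horizontal lines are means and bars are SD. The numbers separate at CD6, CD7 and CD28, the lengths at all 7 genes with CTCF, and CTLA4, ICOS and PTPRC sit at 0.

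H3K27ac covered less of the window in both shSATB1 lists than in either shCtrl list at 5 of the 10 genes, against 26.2% of all genes, and more at 1 (CD69), against 4.34%. Only a gene with H3K27ac in both shCtrl lists can be lower. That held for 8 of the 10 (80%), against 56.7% of all genes, so the shares of lower genes do not start from like presence of the mark. CD28 had 31.4 and 35.4 kb in shCtrl and 28.4 and 27.2 kb in shSATB1, CD27 had 16.0 and 16.2 kb against 13.2 and 10.8 kb, and CD6 had 18.6 and 17.2 kb against 14.9 and 12.6 kb. The arms are apart at each of these genes. At CD2 (25.6 and 25.5 kb against 25.2 and 23.3 kb) and CD7 (11.4 and 11.7 kb against 11.3 and 9.20 kb) the arms nearly meet. Without the lowest 25% of each list by height CD28 was no longer among the 5, and with windows of 0 or 5 kb CD2 and CD7 were not. CD69 was lower in both shSATB1 lists than in either shCtrl list in each of these settings. CD5 (5.93 and 3.38 kb against 3.96 and 2.10 kb) and PTPRC (2.67 and 0.987 kb against 1.54 and 0 kb) overlapped between arms.

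The mean shSATB1 length was 83.2% of shCtrl at CD28, 77.0% at CD6, 74.5% at CD27, 89.1% at CD7, 95.0% at CD2 and 116% at CD69, beside a median of 84.0% over the 12222 genes with H3K27ac in shCtrl. CD69 lay at the 90.0th percentile of that distribution, and CD2 at the 70.5th. Each of the 6 differences has p = 0.33 by the exact permutation test, the smallest that 2 against 2 libraries can give, and an adjusted p of 1. Of 30 H3K27ac regions in the windows 20 (66.7%) were called in all 4 lists, against 59.7% of 20526 regions. Those called in both shCtrl and neither shSATB1 list were 2 (6.67%, against 5.95%), in CD5 and CD28, and the reverse held for 1 (3.33%, against 2.62%), the one beyond CD69. The number of H3K27ac peaks was lower in both shSATB1 lists at CD28 alone, against 4.8% of all genes, and higher at CD69, against 2.82%.

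**Figure D5:**
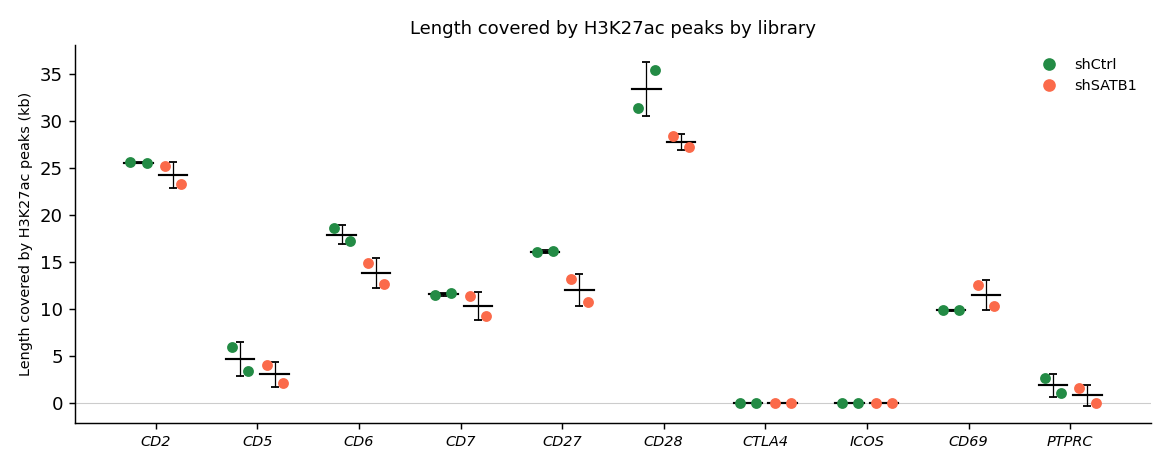
Length covered by H3K27ac peaks (kb) in the window of each gene. Points are libraries, 2 shCtrl and 2 shSATB1, horizontal lines are means and bars are SD. CD69 is the only gene whose shSATB1 points both lie above its shCtrl points, and CTLA4 and ICOS are at 0.

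Matrin 3 peaks numbered 43 in the windows in replicate 1 and 2 in replicate 2. In replicate 1 CD28 held 9, CD6 7, CD2 6 and CD5 5, and every one of the 10 genes had at least 1. The tallest of replicate 1 in the windows lay on VAMP1 and TAPBPL beside CD27 (97.3), inside CD28 (87.3) and at the higher end of CD2 (86.0). With 1 list of 24566 peaks and another of 2105, no spread can be given for these values.

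Other T cell surface genes, in 6 lists by role with 45 genes in all, showed where the 10 members stand. SATB1 was called in both lists at 28 of the 45 (62.2%, against 45% of all genes). It was at 5 of 5 genes of the SLAM family and 5 of 5 membrane adaptors, at 11 of 14 other glycoproteins, and at 3 of 8 ligands of the members, 2 of 8 inhibitory receptors and 2 of 5 in the list of TNF receptor family genes with the TNF family ligand CD40LG, which was 1 of these 2. CTCF peaks were lower in every shSATB1 library at 13 (28.9%, against 31.6% of all genes) and higher at none, against 1.05%. H3K27ac length was lower in both shSATB1 lists at 20 (44.4%, against 26.2%) and higher at 3 (6.67%, against 4.34%). H3K27ac in both shCtrl lists, without which a gene cannot be lower, was called at 33 of the 45 (73.3%), against 56.7% of all genes. The lists were chosen with earlier results of these data known, and the shares carry no test.

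CD84 and SLAMF1 of the SLAM family, whose members bind one another between lymphocytes, had a mean of 14.3 and 7.50 kb of SATB1. SLAMF1 held 6, 5 and 7 CTCF peaks in shCtrl and 2, 1 and 2 in shSATB1, and CD84 5, 6 and 6 against 4, 5 and 6. The arms are thus apart at SLAMF1 and overlap at CD84. CD47, the inhibitory ligand that limits phagocytosis, had 11.1 kb of SATB1, the adaptor PAG1 9.65 kb and TRAT1 5.44 kb. PAG1 held 7, 7 and 5 CTCF peaks in shCtrl and 1, 1 and 2 in shSATB1.

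Among the ligands of the members, CD48 and CD58, which bind CD2 family receptors, had 7.80 and 3.40 kb of SATB1. H3K27ac at CD58 covered 12.2 and 14.4 kb in shCtrl and 7.04 and 6.36 kb in shSATB1, which do not overlap. The inhibitory receptors with the most SATB1, LAG3 and BTLA, had 2.07 and 0.726 kb, and H3K27ac at LAG3 covered 11.1 and 9.65 kb against 7.24 and 5.99 kb. CD40LG, the CD40 ligand, had 6.74 kb of SATB1 and TNFRSF9 0.872 kb. H3K27ac at CD40LG covered 35.1 and 29.3 kb in shCtrl and 35.9 and 33.8 kb in shSATB1, which overlap. The 3 genes with more H3K27ac in both shSATB1 lists were CD80, a CD28 and CTLA4 ligand (0 and 1.26 kb against 1.54 and 2.17 kb), CD44, the hyaluronan receptor (12.5 and 15.6 kb against 18.7 and 16.2 kb), and LAT, the adaptor of the antigen receptor (8.04 and 8.43 kb against 9.41 and 9.44 kb).

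The genes most like CD28 and CD69 in covered length were sought over 5 group means (SATB1, and H3K27ac and CTCF in each arm) as Euclidean distance of log2(kb + 1). For CD28 they were ZNF280D (distance 0.560), WWOX (0.848) and TGFBR2 (0.860). Their CTCF length was 15.4, 21.6 and 19.5 kb in shCtrl and 1.71, 2.51 and 1.81 kb in shSATB1, beside 17.2 and 1.23 kb at CD28. CTCF length in each arm was among the 5 values matched, so this likeness follows from the selection. For CD69 they were R3HDM1 (0.469), RAPGEF6 (0.523) and H2BC5 (0.573). The search covered genes outside the windows of the 10 members.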

How the data were processed

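Each library came as 1 peak list in which the authors deposited position, total signal and maximum signal per peak, as coverage with no scaling recorded. The genome was GRCh38 and the tools SEACR, deepTools, SAMtools, Bowtie2, Trim Galore and, except for Matrin 3, MACS2, per the submitters' processing notes. Their versions are not given in the sources used here. Only chromosomes 1 to 22 and X entered, which left out 405 of 273747 peaks (0.148%). Peaks of 1 target were merged where they shared at least 1 bp. Peak numbers and covered length per gene window were compared over libraries by two-sided exact permutation tests for all 19974 genes, with Benjamini-Hochberg adjustment over all. CTCF at SATB1 regions needed 2 of 3 shCtrl lists and H3K27ac both. Named genes were the 10 members, the 2 genes of each role list with the most SATB1, listed genes that went against the majority direction, neighbours in the windows and the 3 genes nearest to each of the 2 members with the most SATB1. A gene that this rule names is not reported here. Members and lists were chosen with earlier results of these data known. The comparison of arms was tested on simulated counts and lengths per gene, and window measures, merging and overlap on a small made-up set of peaks. The gene table gives no strand or exons, so gene ends are named by coordinate. Positions are 1-based. Python 3.11.15, numpy 2.4.6, pandas 2.3.3 and scipy 1.17.1 were used.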

Additional observations from a re-analysis of the deposited data

How the results depend on the processing

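Of 108 alternatives to the counts above, 86 stayed within 1.5 times the value given or, for shares, within its interval, and of 172 to single-gene differences other than 0, 155 kept their sign, 9 became 0 and 8 turned. The number of members with fewer CTCF peaks in every shSATB1 library was 3 (31.6% of all genes). It was 5 with windows of 50 kb (43.2% of all genes), 7 by covered kb (72.3%) and 1 (CD28) with lists of equal length (3.05%). With windows of 0 kb (20.2%) or 5 kb (23.1%) it was 3, namely CD6, CD27 and CD28. Without the lowest 25% of each list (26.6%) it was 3 as well, namely CD5, CD6 and CD28. CD7 was thus not among them with these windows or without the lowest peaks. Leaving out a library gave 3 to 4, and the share of all genes was 35.2% without shCtrl replicate 1, where 3 members were lower. The number with more was 0, and 1 with lists of equal length; leaving out a library gave 0 to 1, the 1 being CD2 without CTCF shSATB1 replicate 2. The CD2 difference was -14.2 by covered kb against 1 peak by number, and that of CD69 0.33 peaks with lists of equal length. For H3K27ac length, 5 members were lower, and 1 by number of peaks; leaving out a library gave 5 to 7. One was higher, and 0 with windows of 0 or 5 kb or without the lowest 25% of each list; leaving out a library gave 1 each time. The CD69 difference was then -0.543, -0.543 and -0.626 kb, that of CD7 0.0180 and 0.0345 kb with windows of 0 and 5 kb, and that of PTPRC 0.277 kb with lists of equal length. CTCF regions lost were 1 and gained 1 with lists of equal length, and gained 1 with windows of 500 bp on the maxima; leaving out a library gave 6 to 8 lost and 0 gained. H3K27ac regions lost were 1 with windows of 500 bp and 1 with lists of equal length; leaving out a library gave 2 to 5 lost, the 5 without shSATB1 replicate 1, and 1 to 2 gained, the 2 without shSATB1 replicate 2. SATB1 regions numbered 10 with windows of 0 kb, of which 90.0% overlapped CTCF and 100% Matrin 3, and 14 with windows of 5 kb. Matrin 3 peaks numbered 2 in the replicate 2 list and 2 in both. The cause of these changes was not tested. Whether replicate numbers pair the samples was not settled. Same-numbered deviations correlated by only 0.0467, 0.0165 and 0.0277 for CTCF, though each CTCF library correlated best with its own number. For H3K27ac the value was 0.0334, which with 2 libraries per arm can differ only in sign and so cannot decide the question. With the replicate block 3 members were lower and 0 higher for CTCF (smallest exact p 0.25), and 7 lower and 1 higher for H3K27ac (0.5), where CD5 and PTPRC joined the 5. For this block, and for most settings with a library left out, shares over all genes or regions are not given here. Such settings can raise those shares too, so their counts are not read as results about the members. Depth is unknown for every list, so a peak below the calling limit of a shorter list cannot be told apart from a missing one.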
